A study of Mus musculus with 4 samples.

Results

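Peaks of Sox2 and 3 HaloTag fusions were examined at the nuclear tRNA genes of the mouse. The members were all 408 genes of biotype tRNA on chromosomes 1 to 19, X and Y in the RefSeq gene table of GRCm38.p6 (the coordinates of mm10), out of 49943 annotated genes. A gene was counted as held by a library when the centre of a peak lay in the gene or within 100 bp of it. The genes were 70 to 107 bp long, with a median of 72 bp. The libraries were made by ChIP-exo, in which an exonuclease trims precipitated DNA to the crosslinked protein, from D3 mouse embryonic stem cells. The groups were endogenous Sox2, an HMG-box factor of pluripotent cells precipitated with an antibody, and 3 HaloTag fusions taken up on HaloLink resin. Halo-Sox2 is the fusion of Sox2, Halo-Sox2M carries mutations given in the labels as M47G, F50 and M51G, and Halo-Sox2D holds residues 1 to 120 of Sox2. Each group had 1 library, the labels do not say how the fusions were expressed, and neither an input nor a library from resin alone was used here.

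A tRNA gene is transcribed by RNA polymerase III. Its promoter lies inside the transcribed sequence, in an A box and a B box that the factor TFIIIC binds, and TFIIIC places TFIIIB, which contains the TATA-binding protein, just upstream of the gene. Most tRNA genes are multi-copy: genes of one anticodon can be identical or nearly so, and many stand in clusters. How the authors treated reads that fit several copies is not given in the sources used here, so a peak in 1 copy cannot be told apart from a peak in its twin.

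The RefSeq promoter sequences (GRCm38.p6) held 4 of the 408 genes whole. They are shown to place the peaks described below on real bases. The strand of each gene was read from the core letters of the B box, GTTCNANNC, which occurred on 1 strand of each gene. These letters occurred on either strand in 9.33% of all 32817 promoter windows of 300 bases, so a match by itself is only a description. n-TAagc16, an alanine tRNA gene held by no library (chr13:21222586-21222657, plus strand), is printed with this core in capitals. n-TVcac9, a valine tRNA gene (chr13:23446142-23446214, minus strand), held a Halo-Sox2M peak at 23446165 to 23446179, and the bases under that peak are in capitals.
n-TAagc16: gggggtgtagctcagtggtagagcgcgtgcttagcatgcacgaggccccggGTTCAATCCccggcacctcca
n-TVcac9: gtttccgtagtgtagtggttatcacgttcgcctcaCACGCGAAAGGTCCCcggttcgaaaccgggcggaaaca
Counted from the 5′ end of n-TVcac9, the peak covered bases 36 to 50, and the B box core covered bases 53 to 61. The peak therefore ended before the core began. The other 2 genes with a whole sequence, n-TTagt9 and n-TRtcg5, were held by no library.

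The libraries held different numbers of tRNA genes. Endogenous Sox2 held 19 of 408 (4.66%, 95% Wilson interval 3.00 to 7.16%), Halo-Sox2 held 40 (9.80%, 7.28 to 13.1%), Halo-Sox2M held 27 (6.62%, 4.59 to 9.46%) and Halo-Sox2D held 54 (13.2%, 10.3 to 16.9%). Of all annotated genes, by the same rule, Halo-Sox2D held 12.5%, Halo-Sox2 5.51%, endogenous Sox2 4.45% and Halo-Sox2M 1.03%. The shares of endogenous Sox2 and Halo-Sox2D thus lay near those of all genes, although those genes have a median length of 5956 bp. Other genes of at most 150 bp, 4129 in number, are closer in length. Of these 0.121% were held by endogenous Sox2, 0.218% by Halo-Sox2, 1.19% by Halo-Sox2M and 0.388% by Halo-Sox2D. In every library the interval of the tRNA genes lay above that of the short genes. The share of Halo-Sox2M came from 49 short genes. Halo-Sox2M also held 45 of 63 genes of biotype rRNA, with a median length of 121 bp, and 0 snoRNA and miRNA genes. How much of its short-gene share was rRNA genes was not counted. Wilson intervals cover counting error alone, neighbouring genes are not independent, and no difference between libraries has a replicate check.

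**Figure D1:**
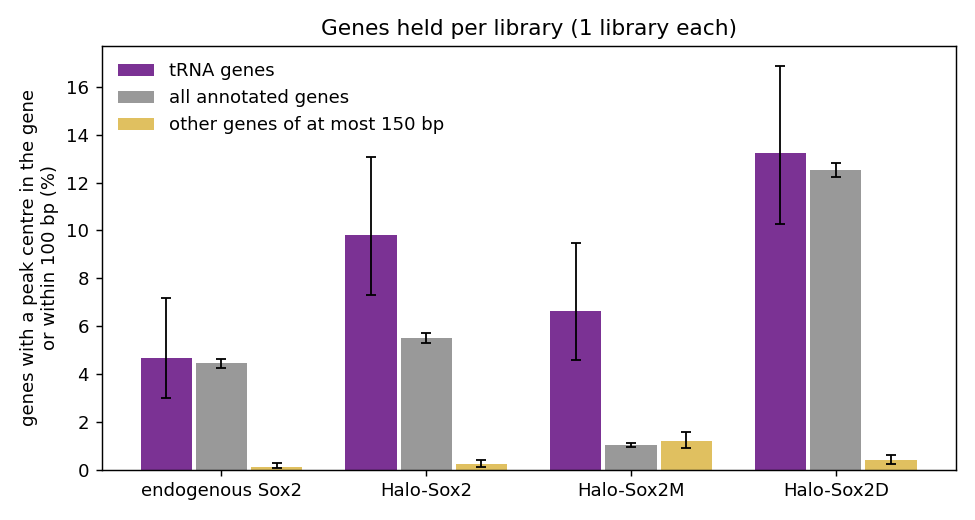
Share of genes held (%, vertical axis) in each of the 4 libraries, for tRNA genes, all annotated genes and other genes of at most 150 bp; bars are shares and lines are 95% Wilson intervals. The tRNA share exceeds that of other short genes in each library, and that of all annotated genes clearly in Halo-Sox2 and Halo-Sox2M.

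Classes of short RNA gene differed among themselves. None of 1340 snoRNA genes was held by endogenous Sox2 or Halo-Sox2M, which allows a share of up to 0.224%, and 2 were held by Halo-Sox2 and 4 by Halo-Sox2D. Of 1228 miRNA genes, endogenous Sox2 and Halo-Sox2 held 1 each, Halo-Sox2M held 0 (up to 0.244%) and Halo-Sox2D held 6. Of 1004 snRNA genes, Halo-Sox2 held 21, Halo-Sox2M 12, endogenous Sox2 9 and Halo-Sox2D 8. Of the 63 genes of biotype rRNA, 45 were held by Halo-Sox2M, 3 by Halo-Sox2, 1 by endogenous Sox2 and 0 by Halo-Sox2D (up to 4.76%). Among these 5 classes of RNA gene, tRNA genes had the highest share held by each protein except Halo-Sox2M, where rRNA genes came first. The interval of the tRNA genes overlapped that of the rRNA genes in the Halo-Sox2 list (rRNA 4.76%, 1.63 to 13.1%) and in the list of endogenous Sox2 (rRNA 1.59%, 0.281 to 8.46%), but not for Halo-Sox2D.

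The list of Halo-Sox2D had 13833 peaks, that of endogenous Sox2 7153, that of Halo-Sox2 6558 and that of Halo-Sox2M 1711. They give no score or read number, so depth is unknown, and what sets the length of a list was not tested. As a share of its own list, Halo-Sox2M had most peaks at tRNA genes: 27 peaks or 1.58% (1.09 to 2.29%). Halo-Sox2 had 42 (0.640%, 0.474 to 0.864%), Halo-Sox2D had 59 (0.427%, 0.331 to 0.550%) and endogenous Sox2 had 21 (0.294%, 0.192 to 0.448%). The interval of Halo-Sox2M lay above the other 3. Halo-Sox2D thus held most genes in number, and Halo-Sox2M gave the largest share of its list to them. The first of these depends on the window: with centres inside the gene only, Halo-Sox2 held 26 genes, Halo-Sox2M 23, endogenous Sox2 15 and Halo-Sox2D 15. Almost every held gene had a single peak: 2 genes of endogenous Sox2, 2 of Halo-Sox2, 0 of Halo-Sox2M and 5 of Halo-Sox2D had 2 peaks, and none had more. No peak lay in the windows of more than 1 tRNA gene. Peaks crowded into 11 chromosome bins (100 kb each, at least 15 peaks of a library), and none of the 408 tRNA genes lay in one. On the chromosomes Halo-Sox2M had 1409 peaks, of which the 27 at tRNA genes made up 1.92%, and outside these bins it had 954, of which they made up 2.83%.

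Peaks were placed differently within the windows. Inside the gene lay 16 of 21 endogenous Sox2 peaks (76.2%, 54.9 to 89.4%), 27 of 42 Halo-Sox2 peaks (64.3%, 49.2 to 77.01%) and 23 of 27 Halo-Sox2M peaks (85.2%, 67.5 to 94.1%). Of the Halo-Sox2D peaks 17 of 59 lay inside (28.8%, 18.8 to 41.4%), and this interval lay below those of the other libraries. The genes made up 30.4 kb of the windows. The flanks made up 20.4 kb at 1 to 25 bp, 20.4 kb at 26 to 50 bp and 40.5 kb at 51 to 100 bp. Most window sequence thus lay outside the genes, so 28.8% inside does not by itself mean that Halo-Sox2D peaks avoided them. The 42 Halo-Sox2D peaks outside a gene were split evenly, 21 below its lower coordinate and 21 above its upper one. The table gives no strand, so upstream and downstream could not be told apart. Of these peaks 25 lay within 25 bp of the gene, 5 at 26 to 50 bp and 12 farther out. The 4 Halo-Sox2M peaks outside a gene lay at most 13 bp away, whereas Halo-Sox2 reached 71 bp, endogenous Sox2 77 bp and Halo-Sox2D 97 bp.

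**Figure D2:**
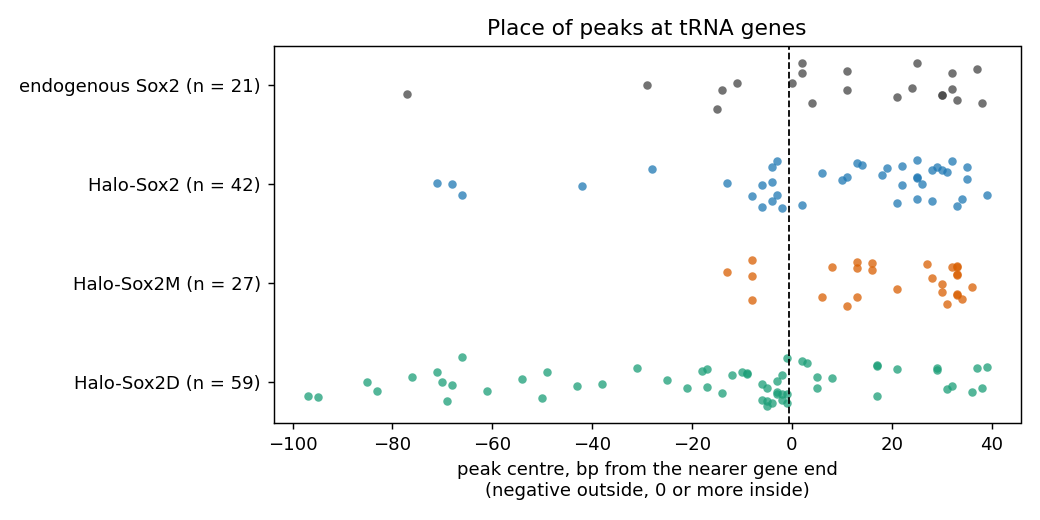
Each point is 1 peak at a tRNA gene; the horizontal axis gives the distance of its centre in bp from the nearer end of the gene, negative outside and 0 or more inside, and the vertical axis the library (points are spread vertically for sight only). Halo-Sox2M points lie almost all inside (23 of 27). Halo-Sox2D points lie mostly outside (42 of 59), as does most of the window sequence, and many of them are close to the gene end.

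The density of peak centres was highest in tRNA genes or within 25 bp of them in each library, though it did not fall evenly with distance. Inside tRNA genes, 30.4 kb in all, Halo-Sox2 had 0.888 peaks per kb, Halo-Sox2M 0.756, Halo-Sox2D 0.559 and endogenous Sox2 0.526. In sequence more than 10 kb from any tRNA gene it was 0.00225, 0.000507, 0.00492 and 0.00249 peaks per kb in the same order. The density inside was thus 1490 times that far away for Halo-Sox2M, 395 times for Halo-Sox2, 211 times for endogenous Sox2 and 114 times for Halo-Sox2D. From 1 to 25 bp outside the gene the density of Halo-Sox2D rose to 1.23 peaks per kb (25 peaks), above its own density inside, while it fell to 0.490 for Halo-Sox2 (10 peaks), 0.196 for Halo-Sox2M (4 peaks) and 0.147 for endogenous Sox2 (3 peaks). Between 101 and 250 bp there were 0 endogenous Sox2 peaks, 1 Halo-Sox2 peak, 0 Halo-Sox2M peaks and 8 Halo-Sox2D peaks in 113 kb. Halo-Sox2M had no peak at all from 26 to 2500 bp. Halo-Sox2D had 13 peaks at 251 to 500 bp and 12 at 501 to 1000 bp, 16.2 and 8.51 times its density beyond 10 kb. Halo-Sox2 had 1 peak at 251 to 500 bp and 11 at 501 to 1000 bp, 2.73 and 17.1 times its density beyond 10 kb.

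**Figure D3:**
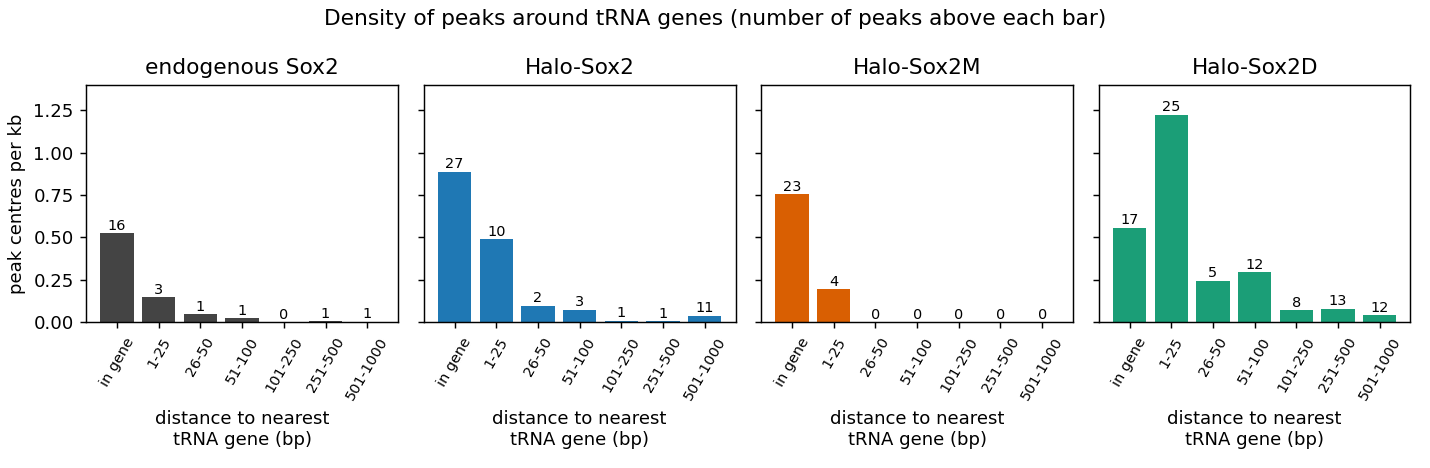
Peak centres per kb (vertical axis) by distance in bp to the nearest tRNA gene (horizontal axis), 1 panel per library; bars are densities over all 408 genes, with the number of peaks above each. The bar inside the gene is highest for endogenous Sox2, Halo-Sox2 and Halo-Sox2M, and the bar at 1 to 25 bp is highest for Halo-Sox2D.

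Flanking Halo-Sox2D peaks could be read as sequence where a tRNA gene reaches into the promoter window of a protein-coding gene. There were 3 peaks of this kind in the 4 lists, all of Halo-Sox2D. Those before Polr3e and Prmt5 are shown because each lies between the tRNA gene and the annotated start of its neighbour. The other one, beside the asparagine gene n-TNgtt7, is not printed, since that tRNA gene and its peak lie inside the annotated span of Ndufs7. Polr3e encodes a subunit of RNA polymerase III itself, and Prmt5 an arginine methyltransferase. The 250 bases before each start are printed in the direction of the protein-coding gene (GRCm38.p6), with the bases under the Halo-Sox2D peak in capitals.
Polr3e, chr7:120917528-120917777, plus strand: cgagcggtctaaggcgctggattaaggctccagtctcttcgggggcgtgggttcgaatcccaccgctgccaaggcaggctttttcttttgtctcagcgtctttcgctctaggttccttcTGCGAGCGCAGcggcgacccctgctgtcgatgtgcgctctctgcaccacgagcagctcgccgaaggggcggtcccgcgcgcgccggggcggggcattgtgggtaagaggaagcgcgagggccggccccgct
Prmt5, chr14:54517471-54517720, minus strand: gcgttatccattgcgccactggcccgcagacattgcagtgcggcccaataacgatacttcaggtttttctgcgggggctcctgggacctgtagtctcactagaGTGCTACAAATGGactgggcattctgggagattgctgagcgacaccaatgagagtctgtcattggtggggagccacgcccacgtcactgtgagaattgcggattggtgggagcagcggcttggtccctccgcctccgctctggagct
The first 71 bases of the Polr3e stretch belong to the leucine tRNA gene n-TLaag4, and the peak covers bases 120 to 130, with 120 bases left to the start. In the Prmt5 stretch the first 25 bases belong to the arginine gene n-TRacg6, and the peak covers bases 104 to 116. The peak centres lay 54 bp outside n-TLaag4 and 85 bp outside n-TRacg6, so they met the 100 bp rule while sitting in the sequence between both genes.

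Of the 408 tRNA genes 49 lay within 1 kb of an end of a protein-coding gene. Halo-Sox2D held 11 of these 49 (22.4%, 13.02 to 35.9%) and 43 of the other 359 (12.0%, 9.02 to 15.7%). For Halo-Sox2 the shares were 14.3% (7.10 to 26.7%) and 9.19% (6.62 to 12.6%). For endogenous Sox2 and for Halo-Sox2M 4 of the 49 were held, 8.16% (3.22 to 19.2%), against 4.18% (2.55 to 6.78%) and 6.41% (4.31 to 9.43%) of the others. The intervals overlapped in each library.

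The genes stood on 19 chromosomes and in 13 clusters of 5 or more genes, joined where neighbours lay within 500 kb. The clusters held 275 genes, of which 82 were held by at least 1 library (29.8%, 24.7 to 35.5%), against 35 of the 133 genes elsewhere (26.3%, 19.6 to 34.4%). The 275 include a cluster of 49 genes on chromosome 6 and one of 13 on chromosome X in which no gene was held. These lower the share in clusters, and the comparison was not repeated without them. On chromosome 13, which carries 105 tRNA genes, the larger cluster (21160785 to 22050767, 59 genes for 14 amino acids) had 3 genes held by endogenous Sox2, 5 by Halo-Sox2, 6 by Halo-Sox2M and 7 by Halo-Sox2D. The smaller one (23270421 to 23530419, 45 genes for 15 amino acids) had 3, 7, 3 and 7 in the same order. The chromosome as a whole had 36 of 105 genes held by some library (34.3%, 25.9 to 43.8%).

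The cluster on chromosome 1 (171033942 to 171111515, 25 genes) had the highest share held in any cluster of 5 or more genes: 17 of 25 by at least 1 library (68.0%, 48.4 to 82.8%). The lower bound lay above the 28.7% of all tRNA genes held by some library and the 34.6% off chromosomes 6 and X. Halo-Sox2 held 8 of the 25 genes, Halo-Sox2M 7, Halo-Sox2D 3 and endogenous Sox2 2. The genes of this cluster are repeated along the chromosome: the starts of the glycine genes n-TGgcc12, n-TGgcc13 and n-TGgcc14 lay 7671 and 7574 bp apart. The cluster was singled out after its share was seen, and the interval treats repeated genes as independent. With peaks at the same place in several copies counted once, as described below, Halo-Sox2 had 7 and Halo-Sox2M 4. The 17 was not recounted. On chromosome 3 (96322074 to 96501518, 25 genes) 7 were held, 2 by endogenous Sox2, 2 by Halo-Sox2, 0 by Halo-Sox2M and 4 by Halo-Sox2D. A cluster of 18 genes on chromosome 11 (69037003 to 69125248) had 9 held, 5 by Halo-Sox2D, 4 by Halo-Sox2M, 3 by Halo-Sox2 and 2 by endogenous Sox2. In a cluster of 7 genes on chromosome 17 (23533962 to 23550335), Halo-Sox2D held 3 and endogenous Sox2 held 1.

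The cluster on chromosome 6 (47978997 to 48363603) contained 49 genes, all for cysteine, and none was held by any library, which allows a share of up to 6.12%. None of these 49 genes had a peak centre within 1 kb either, in any of the 4 lists. The remaining 4 genes of chromosome 6 were also held by none, as were the 17 genes of chromosome X. Over the 338 genes off chromosomes 6 and X, Halo-Sox2D held 16.0%, Halo-Sox2 11.8%, Halo-Sox2M 7.99% and endogenous Sox2 5.62%. Whether peaks could be called in this cysteine cluster, given its number of copies, was not tested.

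**Figure D4:**
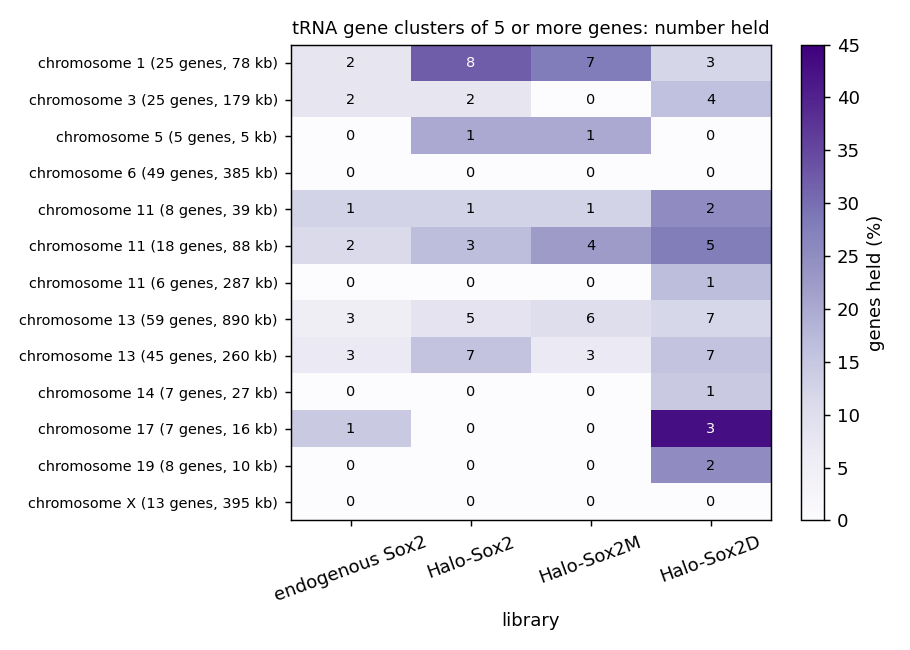
Clusters of 5 or more tRNA genes (rows, with the number of genes and the length in kb) by library (columns); the number in a cell counts genes held and the shade gives their share in %. The cluster of 49 genes on chromosome 6 and that of 13 on chromosome X are empty in every library, and the chromosome 1 cluster is filled mainly by Halo-Sox2 and Halo-Sox2M.

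Genes with a close tRNA neighbour were held more often by Halo-Sox2M. Of the 171 genes with another tRNA gene within 1 kb it held 22 (12.9%, 8.65 to 18.7%), and of the 237 without one it held 5 (2.11%, 0.904 to 4.84%). For Halo-Sox2 the numbers were 24 (14.0%, 9.62 to 20.03%) and 16 (6.75%, 4.20 to 10.7%), with intervals that overlapped slightly. Halo-Sox2D held 14.6% (10.1 to 20.7%) and 12.2% (8.66 to 17.0%), and endogenous Sox2 5.85% (3.21 to 10.4%) and 3.80% (2.01 to 7.06%). The 237 genes include all 17 of chromosome X and most of those of chromosome 6, none of them held by any library. This lowers the share without a neighbour, and the shares were not recounted without these chromosomes.

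By amino acid, read from the gene symbols for all 408 genes, held genes were spread widely: 19 of 20 amino acids had a gene held by Halo-Sox2D, 16 by Halo-Sox2, 13 by Halo-Sox2M and 10 by endogenous Sox2. Cysteine stood apart, with 1 gene held of 57 (1.75%, 0.310 to 9.29%), but 49 of the 57 form the chromosome 6 cluster. Of the 8 cysteine genes elsewhere 1 was held, by Halo-Sox2D on chromosome 11. Without cysteine 116 of 351 genes were held by some library (33.0%, 28.3 to 38.1%). Asparagine had 1 of 13 held, by Halo-Sox2D. Arginine had 11 of 24 held (45.8%, 27.9 to 64.9%): 6 by Halo-Sox2D, 5 by Halo-Sox2, 2 by endogenous Sox2 and 0 by Halo-Sox2M. Halo-Sox2M held 5 of 16 aspartate genes and 4 of 16 isoleucine genes, whereas the other libraries each held 0 or 1 of either. Some of these are copies with a peak at exactly the same place, described below, and counted once they come to 4 aspartate and 2 isoleucine genes. The isoleucine gene counted apart, n-TIaat11 (named after its values were seen), also had a 15-bp peak. It spanned offsets 25 to 39 from the lower end of the gene, against 26 to 40 from the upper end in the other isoleucine genes. Counted from the lower end in all, its centre lay at base 33 and theirs at base 41. The places are thus nearly the same only if n-TIaat11 lies on the opposite strand, which is not known. Endogenous Sox2 held 4 of 22 serine genes and 2 of 10 tyrosine genes. All 3 tryptophan genes that were held, of 8, were held by Halo-Sox2D alone, and all 3 held phenylalanine genes, of 7, had a Halo-Sox2 peak. Numbers per amino acid are small, and no amino acid was compared between libraries by a test.

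**Figure D5:**
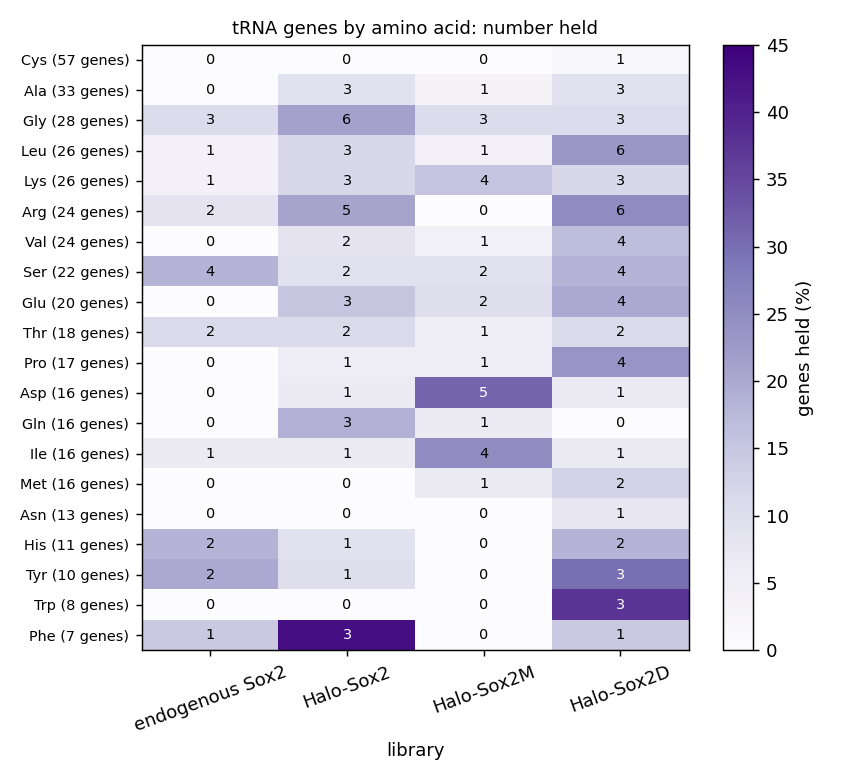
Amino acids (rows, with the number of tRNA genes) by library (columns); the number in a cell counts genes held and the shade gives their share in %. Cysteine, with 57 genes of which 49 form the chromosome 6 cluster, has 1 held gene. Aspartate and isoleucine are filled mainly in Halo-Sox2M, where copies with a peak at the same place are each counted.

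Some Halo-Sox2M peaks repeated at exactly the same place in several copies. Of its 27 peaks 10 lay in 4 sets of genes with 1 anticodon in which both peak ends had the same distance from the gene, read in either direction. These genes were picked out after their values were seen. In the glycine genes n-TGgcc12, n-TGgcc13 and n-TGgcc14 of chromosome 1 a peak of 9 bp was centred 8 bp outside the gene, at 171066619 to 171066627, 171074290 to 171074298 and 171081864 to 171081872. The aspartate genes n-TDgtc3 and n-TDgtc7 of the same cluster shared a peak of 19 bp inside the gene. Copies on different chromosomes did so too: the isoleucine genes n-TIaat5, n-TIaat6 and n-TIaat7, on chromosomes 11, 12 and 13, each had a peak of 15 bp at one place inside the gene, and the glutamate genes n-TEctc5 and n-TEctc11, on chromosomes 1 and 13, one of 16 bp. Halo-Sox2 had 1 such set, a peak of 11 bp centred 4 bp outside n-TGtcc5 and n-TGtcc4, and endogenous Sox2 and Halo-Sox2D had 0. With each set counted once, Halo-Sox2M held 21 genes in place of 27, 5.15%, and 1.23% of its peaks lay at tRNA genes (0.804 to 1.87%). By the same count Halo-Sox2 had 0.625% (0.461 to 0.847%), so that these intervals overlapped. In the chromosome 1 cluster Halo-Sox2M then held 4 genes in place of 7, and among genes with another tRNA gene within 1 kb it held 9.94% (6.30 to 15.3%), against 1.69% (0.658 to 4.26%) of those without. Whether reads of 1 copy were assigned to the others in these sets was not tested.

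Most held genes were held by 1 library only. Of the 117 genes held at all, 96 were held by 1 library, 19 by 2, 2 by 3 and 0 by all 4. Each library held between 4.66 and 13.2% of all tRNA genes. With shares this low, most held genes fall to 1 library even where lists are unrelated. The same count over all annotated genes was not made, so these numbers are a description only. Halo-Sox2D alone held 40 genes, Halo-Sox2 alone 28, Halo-Sox2M alone 21 and endogenous Sox2 alone 7. Endogenous Sox2 and Halo-Sox2D shared 7 genes, 36.8% of the 19 of endogenous Sox2 (19.1 to 59.0%) and 12.96% of the 54 of Halo-Sox2D (6.42 to 24.4%). Of all tRNA genes Halo-Sox2D held 13.2%, and 16.0% without chromosomes 6 and X, on which no gene was held. Both values lay below the interval of the first share, but this was only 1 of several pairs. Endogenous Sox2 and Halo-Sox2D also each held genes over 80 bp more often than shorter ones, and sharing was not recounted by length. Halo-Sox2 and Halo-Sox2D also shared 7, 17.5% and 12.96% of their genes, and the first share (8.75 to 31.95%) spanned that 13.2%. Endogenous Sox2 and Halo-Sox2 shared 4, 21.1% (8.51 to 43.3%) and 10% (3.96 to 23.1%), against 9.80% of all tRNA genes held by Halo-Sox2. Halo-Sox2M shared 3 genes with endogenous Sox2 and 3 with Halo-Sox2, in each case 11.1% of its 27 (3.85 to 28.1%). This interval spanned the 4.66% of all tRNA genes held by endogenous Sox2 and the 9.80% held by Halo-Sox2. Halo-Sox2M shared 1 gene with Halo-Sox2D (3.70%, 0.657 to 18.3%, again spanning 13.2%).

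Where a gene was shared, the peaks often lay apart. Between endogenous Sox2 and Halo-Sox2 none of the 4 shared genes had peaks overlapping by 1 bp, and the nearest centres lay 4 to 156 bp apart with a median of 34 bp. Over the whole lists 8.63% of the peaks of endogenous Sox2 met one of Halo-Sox2, and of the 21 at tRNA genes 0 did. Of the 7 genes of Halo-Sox2 and Halo-Sox2D, again 0 had overlapping peaks (median 55 bp), and of the 7 of endogenous Sox2 and Halo-Sox2D 1 had (median 40 bp). Over the whole lists 7.12% of Halo-Sox2 peaks met one of Halo-Sox2D, against 0 of 42 at tRNA genes, and 9.02% of endogenous Sox2 peaks did, against 1 of 21. Halo-Sox2 and Halo-Sox2M overlapped at 2 of 3 genes, 4.76% of the 42 Halo-Sox2 peaks at tRNA genes, close to the 4.24% of its whole list. With so few peaks at tRNA genes, these shares are coarse. The whole lists also include peaks off the chromosomes and in the crowded bins, where no tRNA gene lies. Overlap without those peaks was not computed. The closest match was n-TKctt11, a lysine tRNA gene on chromosome 13 (23436340 to 23436412, named after its values were seen), where the Halo-Sox2 peak at 23436383 to 23436398 and the Halo-Sox2M peak at 23436383 to 23436399 began at the same base.

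The 2 genes held by 3 libraries show the range. n-THgtg5, a histidine tRNA gene on chromosome 2 (122377968 to 122378039), had an endogenous Sox2 peak at 122377991 to 122377996 and a 1-bp Halo-Sox2 peak at 122377989. Both lay inside the gene, 4 bp apart by their centres. Its Halo-Sox2D peaks, at 122378035 to 122378053 and at 122378053, lay at the upper end of the gene, and it had no Halo-Sox2M peak. n-TTagt8, a threonine tRNA gene on chromosome 11 (69037853 to 69037926), had a Halo-Sox2 peak below the gene at 69037783 to 69037787, a Halo-Sox2M peak inside it at 69037908 to 69037918 and an endogenous Sox2 peak above it at 69037937 to 69037945. It had no Halo-Sox2D peak. The first gene thus had 2 libraries at nearly one place, and the second had each library at a place of its own.

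Of the genes with 2 peaks of endogenous Sox2 or Halo-Sox2, some had both inside and some had 1 on either side of a gene end. n-TGgcc13 (chromosome 1, 171074302 to 171074372), a glycine gene, had endogenous Sox2 peaks at its lower end (171074295 to 171074314) and its upper end (171074364 to 171074372), and the first overlapped the Halo-Sox2M peak there. n-TTcgt2, a threonine gene (chromosome 13, 21264580 to 21264653), had endogenous Sox2 peaks 77 bp outside and inside the gene, and none of another library. n-TIaat5, an isoleucine gene (chromosome 11, 69037003 to 69037076), had Halo-Sox2 peaks at 69036997 to 69037002 and 69037023 to 69037036, and the second met its Halo-Sox2M peak at 1 base. n-TVcac11, a valine gene (chromosome 13, 23307629 to 23307701), had 2 Halo-Sox2 peaks inside and none of another library.

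Halo-Sox2D had its pairs of peaks both inside and outside. In the serine genes n-TSgct4 (chromosome 13, 23521870 to 23521951) and n-TSgct5 (chromosome 13, 22050686 to 22050767) both Halo-Sox2D peaks lay inside. At n-TSgct4 the one at 23521904 to 23521920 overlapped the endogenous Sox2 peak at 23521901 to 23521905. n-TSgct5 had a Halo-Sox2 peak at 22050732 to 22050734, 11 bp from the nearer Halo-Sox2D centre. At n-TWcca7, a tryptophan gene (chromosome 11, 69041826 to 69041897), both lay outside, 10 and 2 bp below the gene. At n-TYgta10, a tyrosine gene of 90 bp (chromosome 14, 51089489 to 51089578), one lay inside and one 49 bp outside. Further Halo-Sox2M genes by the naming rule were n-TKctt10, a lysine gene on chromosome 11, which endogenous Sox2 also held with centres 11 bp apart, and n-TSgct3, a serine gene on chromosome 11, which Halo-Sox2D also held with centres 16 bp apart.

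Other genes of the polymerase III system were looked at beside the tRNA genes. Of 11 further genes that this polymerase transcribes, Rn7sk, which makes the 7SK RNA that restrains transcription elongation, had 1 endogenous Sox2, 1 Halo-Sox2 and 3 Halo-Sox2D peaks. Rny1, a Y RNA gene, had 1 endogenous Sox2 peak, Rn5s, a 5S rRNA gene, had 1 Halo-Sox2M peak, and the other 8 had none. Endogenous Sox2 thus held 2 of the 11, and Halo-Sox2, Halo-Sox2M and Halo-Sox2D 1 each. Of all annotated genes, with a median length of 5956 bp, these libraries held 4.45, 5.51, 1.03 and 12.5% in the same order. Among 31 protein-coding genes of the polymerase III machinery, 7 had a Halo-Sox2D peak within 1 kb of either end, against 12.5% of all 21887 protein-coding genes. They were Polr3b, Polr3e and Polr3f (polymerase subunits), Brf1 and Tbp (parts of TFIIIB), Gtf3c6 (a TFIIIC subunit) and Snapc4. The Polr3e peak is the one already counted at the tRNA gene n-TLaag4, so it is not a separate observation. No interval was computed for this short list. Endogenous Sox2 had peaks at 2 of the 31, Gtf3c6 and Snapc4, against 1.69% of all, and Halo-Sox2 and Halo-Sox2M had 0, against 3% and 0.736%. Of the 20 cytosolic aminoacyl-tRNA synthetase genes, which encode the enzymes that charge tRNAs, 1 had an endogenous Sox2 peak, 2 a Halo-Sox2 peak, 0 a Halo-Sox2M peak and 2 a Halo-Sox2D peak.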

How the data were processed

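ChIP-exo libraries were made after antibody or HaloLink isolation, per the labels' protocols. The submitters' processing notes name Bowtie2 and mm10. No source used here names the peak caller, its threshold or the treatment of reads with several matches. Each deposited list gives peak coordinates without score or read number, so depth is unknown and no stricter threshold could be tried.

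Peak centres were matched to tRNA genes with Python 3.11.15, numpy 2.4.6 and pandas 2.3.3, and shares carry 95% Wilson intervals (scipy 1.17.1). An upper limit for a count of 0 is 3 counts of the total. With 1 library per group no test was run. The counting was tested on simulated lists in which 30 tRNA genes were planted, and 30 were recovered for each library. Sequences came from the RefSeq promoter table. An A box motif was tried on the 4 whole genes, did not match all of them and was dropped.

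Named genes were those held by 3 or more libraries and, per library, the 5 with most peaks, ties by number of libraries, peaks and position; others are marked as chosen later. The members and lists were chosen with earlier results of these data known. Of 12 other polymerase III genes sought, 11 matched the table.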

Additional observations from a re-analysis of the deposited data

How the results depend on the processing

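Of 98 recomputed values, 74 stayed within the 95% interval of the reported share or, for counts, within 1.5 times the reported count, and 24 did not. With centres inside the gene only, Halo-Sox2 held 6.37% of tRNA genes, Halo-Sox2M 5.64% and endogenous Sox2 and Halo-Sox2D 3.68% each, so that Halo-Sox2D no longer led. For Halo-Sox2 and Halo-Sox2D 0.412 and 0.123% of their peaks lay there. With 500 bp, Halo-Sox2D held 19.9% and had 0.578% of its peaks there. With 1000 bp, Halo-Sox2D held 25%, Halo-Sox2 18.6%, Halo-Sox2M 12.5% and endogenous Sox2 9.31%. Among genes with no other tRNA gene within 1 kb, Halo-Sox2 held 6.75% and Halo-Sox2M 2.11%. Off the dense bins and on the chromosomes only, 2.83% of Halo-Sox2M peaks lay at tRNA genes, and 1.92% on the chromosomes with the dense bins kept.

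The number of genes shared depended on the criterion. By overlap of at least 1 bp it was 0 for endogenous Sox2 with Halo-Sox2, 1 with Halo-Sox2M and 1 with Halo-Sox2D, and 0 for Halo-Sox2D with Halo-Sox2 and with Halo-Sox2M. With centres within 50 bp, Halo-Sox2 and Halo-Sox2D shared 3. With a window of 500 bp the numbers were 8 for endogenous Sox2 with Halo-Sox2, 5 with Halo-Sox2M and 12 with Halo-Sox2D, 14 for Halo-Sox2 with Halo-Sox2D, and 8 for Halo-Sox2M with Halo-Sox2D. At 500 and 1000 bp the windows of neighbouring tRNA genes overlap and 1 peak can count for several genes: at 500 bp the 27 Halo-Sox2M peaks counted for 35 genes. Counting peaks at one place in several copies once, and using peaks on the chromosomes only, were chosen after seeing the data. The first was run for genes held, shares of peaks, position, clusters and the number of amino acids, and the second for shares of peaks, and these values stayed within the limits. Sharing between libraries was not recounted. No paired analysis was possible because each group has 1 library.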

Other observations

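Longer tRNA genes, which include those for leucine and serine with a long variable arm and those with an intron, were held more often by endogenous Sox2 and Halo-Sox2D. Of the 65 genes over 80 bp endogenous Sox2 held 8 (12.3%, 6.37 to 22.5%), and of the 343 shorter ones 11 (3.21%, 1.80 to 5.65%). Halo-Sox2D held 16 of the longer genes (24.6%, 15.8 to 36.3%) and 38 of the shorter (11.1%, 8.18 to 14.8%). For Halo-Sox2 the shares were 10.8 and 9.62%, and for Halo-Sox2M 4.62 and 6.997%. The limit of 80 bp was chosen after the data were seen, longer genes have a slightly longer window, and the cysteine genes of chromosome 6 all fall among the shorter genes.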
